A study of Mus musculus with 16 samples.

Results

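MHC class I molecules show peptides from inside a cell to CD8 T cells, and 10 genes of that pathway were followed by name through every library: H2-K1, H2-D1, B2m, Tap1, Tap2, Tapbp, Psmb8, Psmb9, Psmb10 and Nlrc5. They were taken by gene symbol, and all 10 of them were found among the 54532 genes of the count table and passed its filter on low counts, which kept 18777 genes. Poly-A RNA was sequenced from 16 libraries of mouse colon tumours, 2 for each of 8 groups. In C57BL/6 mice, MC38 colon carcinoma cells were grown in the colon wall, from a line with microsatellite instability (MSI) or from one with chromosomal instability (CIN). All mice also received dendritic cells grown from bone marrow, which had been exposed with a lipid reagent for 30 minutes to 2 µg of DNA from MSI or CIN cells, either free cytosolic DNA or micronuclei, the small membrane-bound bodies that hold chromosome fragments. The cells were given into the abdomen on days 1, 6 and 12 and tumours were taken on day 15.

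The 8 groups were MSI tumours with MSI free DNA, CIN free DNA, MSI micronuclei or CIN micronuclei, and CIN tumours with the same 4 preparations. No group without DNA was analysed here, so the DNA comparisons set one kind of DNA against another. Each tumour type stands for the line named in the labels, and a difference between tumour types cannot be told apart from any other difference between the lines. RNA from 3 biological replicates was combined per the series text, and it is not stated whether each library is such a pool, so the spread between libraries may be partly technical. In these bulk tissues, fewer cells of a type and less RNA per cell cannot be told apart.

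A class I molecule is a heavy chain, here encoded by H2-K1 or H2-D1, held by beta-2-microglobulin, the product of B2m. Peptides are cut by the proteasome, whose catalytic subunits are replaced under interferon gamma by Psmb8, Psmb9 and Psmb10 to make the immunoproteasome. The Tap1 and Tap2 proteins carry the peptides into the endoplasmic reticulum, tapasin (Tapbp) bridges the transporter and the empty class I molecule, and Nlrc5 is a transactivator of class I genes. Tumours that lose any of these parts can be harder for CD8 T cells to see.

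Of the 10 members, 7 lie close together in the MHC on chromosome 17 (coordinates in GRCm38, the build that the deposited gene coordinates matched). H2-K1 (ENSMUSG00000061232) runs from 33996017 to 34000333 on the minus strand and H2-D1 (ENSMUSG00000073411) from 35262730 to 35267499 on the plus strand. Tapbp (ENSMUSG00000024308) runs from 33915899 to 33929288. Psmb9 (ENSMUSG00000096727, minus strand, 34181988 to 34187764), Tap1 (ENSMUSG00000037321, 34187553 to 34197225), Psmb8 (ENSMUSG00000024338, 34197721 to 34201454) and Tap2 (ENSMUSG00000024339, 34203527 to 34216321) follow each other. B2m (ENSMUSG00000060802) is on chromosome 2 from 122147686 to 122153083. Psmb10 (ENSMUSG00000031897, minus strand, 105935735 to 105938444) and Nlrc5 (ENSMUSG00000074151, 94434356 to 94527272) are on chromosome 8. Every one of them is annotated as protein coding.

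Promoter windows of 300 bases around a RefSeq start site in GRCm38.p6 were found for 8 of the 10 members. The windows of the heavy chains, of their shared light chain and of the transporter gene Tap1 are shown because they make up the class I molecule and its peptide supply, and capitals mark the motifs that were searched on both strands. The H2-K1 window is chr17:34000298-34000597 (minus strand, the first of 2 listed start sites), that of H2-D1 chr17:35262844-35263143, that of B2m chr2:122147437-122147736 and that of Tap1 chr17:34187306-34187605.
H2-K1: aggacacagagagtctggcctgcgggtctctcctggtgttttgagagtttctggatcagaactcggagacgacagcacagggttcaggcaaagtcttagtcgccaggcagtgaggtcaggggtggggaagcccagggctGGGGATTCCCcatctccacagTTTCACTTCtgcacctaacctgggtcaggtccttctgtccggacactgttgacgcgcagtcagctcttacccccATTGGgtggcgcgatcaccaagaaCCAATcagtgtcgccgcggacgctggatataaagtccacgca
H2-D1: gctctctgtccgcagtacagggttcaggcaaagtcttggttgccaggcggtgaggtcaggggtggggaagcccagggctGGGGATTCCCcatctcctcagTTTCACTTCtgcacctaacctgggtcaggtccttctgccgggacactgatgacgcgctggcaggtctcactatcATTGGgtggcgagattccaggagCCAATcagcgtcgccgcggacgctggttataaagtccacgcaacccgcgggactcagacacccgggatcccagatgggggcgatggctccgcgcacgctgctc
B2m: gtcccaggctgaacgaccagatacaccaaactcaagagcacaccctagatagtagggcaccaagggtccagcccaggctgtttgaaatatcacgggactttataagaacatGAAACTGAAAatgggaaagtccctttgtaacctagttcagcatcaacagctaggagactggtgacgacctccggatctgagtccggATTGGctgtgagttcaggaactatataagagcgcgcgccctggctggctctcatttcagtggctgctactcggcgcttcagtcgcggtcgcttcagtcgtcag
Tap1: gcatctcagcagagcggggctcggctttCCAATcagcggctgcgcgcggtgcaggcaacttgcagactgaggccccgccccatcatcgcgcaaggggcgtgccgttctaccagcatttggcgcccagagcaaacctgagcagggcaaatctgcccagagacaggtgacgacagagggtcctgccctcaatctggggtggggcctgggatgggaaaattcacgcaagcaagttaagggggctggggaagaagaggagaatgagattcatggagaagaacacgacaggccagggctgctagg

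The H2-K1 and H2-D1 windows were alike over 228 aligned bases, of which 90.4% were identical. Both held a kappa B site match (in 1.77% of 32544 RefSeq promoter windows of that length) and the looser interferon response match GAANNGAAA (7.57% of windows), a pattern that was added after a first search. The B2m window held the interferon-stimulated response element core, which 3.45% of windows held. CCAAT was found in the windows of H2-K1, H2-D1, B2m, Tap1, Tapbp and Psmb9, against 37.4% of windows, and the gamma-activated site TTCNNNGAA in that of Psmb8, against 8.33%. The cyclic AMP response element core TGACGT was in none of the 8 windows and in 7.55% of all windows. Psmb9 and Tap1 are transcribed away from each other from start sites 226 bases apart, and their windows shared 275 bases. A match of letters is a description and does not show a binding site.

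Some reads of these genes could have been assigned to more than 1 gene. Library kits that do and do not keep strand are both named in the labels, and no source used here gives the strand setting of the counting. Tap1 and Psmb9 share 212 exon bases on opposite strands, 3.87% of the exon bases of Tap1 and 5.79% of those of Psmb9. Antisense genes cover 24.9% of the exon bases of Tapbp (Gm19412), 14.1% of Tap2 (Gm15821) and 14.7% of Psmb8 (Gm20496). Zbtb22 shares 149 exon bases with Tapbp on the same strand. Of all 50-base stretches of a transcript, 21.0% of those of Tapbp also occur in other genes. The share was 14.3% for H2-D1, 12.6% for Tap2, 12.5% for Psmb9, 8.79% for H2-K1, 6.47% for Tap1 and 5.83% for Psmb8. The other gene was most often H2-D1 for H2-K1 and H2-Q1 for H2-D1. For 100-base stretches the share was 14.0% for Tapbp, 4.64% for H2-D1 and 0% for H2-K1. B2m, Psmb10 and Nlrc5 share none.

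Library totals ran from 11561955 to 17937501 counts, and the lowest count of any member was 777 (Tap2), so the spread between libraries, not counting error, limited the precision. Libraries differed in the tissue they held. The 20 colon epithelium markers, each detected in every library except Cdx2, summed to 10070 to 16355 CPM (counts scaled to library size) in the 4 MSI tumour replicate 2 libraries. They summed to 758 to 5058 CPM in the MSI tumour replicate 1 libraries and 190.2 to 9857 CPM in CIN tumours. The 12 smooth muscle markers summed to 2368 to 5985 CPM in MSI tumour replicate 2 libraries, against 514 to 1428 CPM in MSI tumour replicate 1 libraries and 212 to 2247 CPM in CIN tumours. Skeletal muscle transcripts stood out in 5 libraries, with a mean log2 CPM over their markers of 5.57 in MSI tumour CIN micronuclei 1, 3.29 in CIN tumour MSI free DNA 2, 4.08 in CIN tumour CIN free DNA 2 and 4.26 and 3.97 in CIN tumour MSI micronuclei 1 and 2. Log2 fold changes of the members are given below without these libraries where that changes the result. Values leaving out all 5 are not given for other named genes, ratios or relations.

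The members spanned a wide range of levels. Compared per length as FPKM, B2m was the most abundant, with a median of 2103 and a range of 1619 to 2589 over the 16 libraries. The heavy chains came next, H2-K1 with a median of 751 (574 to 925) and H2-D1 with 718 (513 to 838), and their ranges overlapped almost wholly. Tapbp followed with 133 FPKM (99.7 to 183), then Psmb10 with 69.5 (46.4 to 103), Tap1 with 51.0 (36.7 to 76.3) and Psmb8 with 45.2 (30.6 to 58.2). Psmb9 (23.8 FPKM, 16.7 to 35.2), Tap2 (20.1, 16.4 to 28.6) and Nlrc5 (19.2, 9.35 to 25.9) were the lowest, with ranges that overlapped. Their order within each library was not tested. All 10 members were thus detected in each library, and the highest library exceeded the lowest 2.77-fold for Nlrc5, the widest of the members.

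The same libraries were high or low for most members. MSI tumour CIN free DNA 1 had the highest FPKM for B2m, Tap1, Tap2, Tapbp, Psmb8 and Psmb9, and CIN tumour MSI micronuclei 2 the lowest for Tap2, Tapbp, Psmb8 and Psmb9. MSI tumour MSI micronuclei 2 was lowest for H2-K1, H2-D1, B2m and Tap1. As mean standardised log2 CPM over the 10 members, these 3 libraries stood at 1.81, -1.16 and -1.56 SD units, and the other 13 between -0.50 and 0.60. Among groups, the mean CPM was highest in MSI tumours with CIN free DNA for 8 members and lowest in CIN tumours with MSI micronuclei for 7. The exceptions at the top were H2-D1 and Nlrc5, which were highest in CIN tumours with CIN free DNA. Highest and lowest group means differed 1.23-fold for B2m, 1.31-fold for H2-K1 and 1.27-fold for H2-D1, and 1.96-fold for Psmb10. With 2 libraries a group these orders are descriptions.

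**Figure D1:**
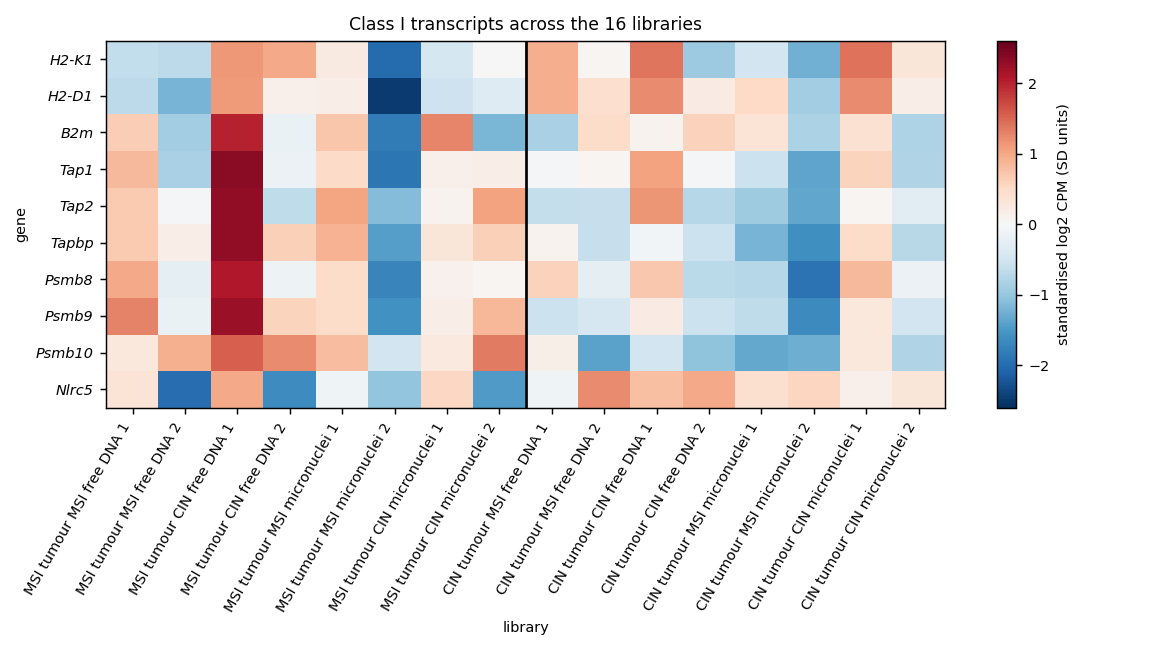
Heat map of the 10 class I presentation genes (rows) in the 16 libraries (columns, MSI tumours left of the black line, CIN tumours right), coloured by log2 CPM standardised over the libraries in SD units, red for high and blue for low. The column of MSI tumour CIN free DNA 1 is red in every row, with a mean of 1.81, the columns of MSI tumour MSI micronuclei 2 (-1.56) and CIN tumour MSI micronuclei 2 (-1.16) are mostly blue, and the Nlrc5 row is blue in the replicate 2 libraries of MSI tumours.

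The first comparison asked how class I genes differed between MSI and CIN tumours over all kinds of DNA. One member, the immunoproteasome subunit gene Psmb10, was higher in MSI tumours, and the heavy chains and the light chain showed no difference beyond the spread between libraries. By edgeR's quasi-likelihood test with Benjamini-Hochberg adjustment at 0.05, 1 of 10 members was called, against 5.8% of all 18777 genes tested (2.32% higher and 3.48% lower). At an unadjusted p under 0.05 there were 3 of 10 members, Psmb10, Tapbp and Psmb9, against 22.1% of all genes. The log2 fold change was positive for 7 of 10 members with a median of 0.10, beside 55.7% and a median of 0.06 for all genes. The T cell score (mean log2 CPM of 20 markers) was 2.63 ± 0.27 in MSI tumours and 2.28 ± 0.46 in CIN tumours (SD, n = 8 each), and 20 of 20 colon epithelium and 12 of 12 smooth muscle markers also had positive values with 0 called. Endothelial markers were positive for 11 of 12 (median 0.70, 5 called higher, edgeR) and skeletal muscle markers for 0 of 11 (median -1.53, 0 called). NK cell and cytotoxic markers were positive for 9 of 11 (median 0.14, 2 called higher). Fibroblast markers were positive for 5 of 10 (median -0.05, 2 called lower) and neutrophil markers for 2 of 7 (median -1.43, 1 called lower). The part of these cell types in the class I values was not tested.

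Of the molecules that reach the cell surface, H2-K1 had 1481, 1905 and 2305 CPM (lowest, median and highest of 8 libraries) in MSI tumours and 1649, 2019 and 2400 CPM in CIN tumours, so the groups overlapped over most of their range (log2 fold change -0.08 ± 0.10 SE, edgeR adjusted p = 0.65). H2-D1 had 1310, 1722 and 2117 CPM in MSI tumours and 1620, 1948 and 2155 CPM in CIN tumours. Its mean was lower in MSI tumours in all 4 matched pairs of groups, yet the ranges overlapped and the test was not passed (log2 fold change -0.18 ± 0.09, edgeR adjusted p = 0.284). B2m had 1378, 1850 and 2376 CPM in MSI tumours and 1582, 1846 and 1945 CPM in CIN tumours, with medians close to each other and a wider spread in MSI tumours (0.04 ± 0.12, edgeR adjusted p = 0.85).

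The transporter genes and tapasin had positive values that did not pass the test. Tapbp, the bridge, had 349.7, 488 and 645 CPM in MSI tumours and 339.7, 402 and 478 CPM in CIN tumours, and 5 MSI libraries lay above all CIN libraries (log2 fold change 0.26 ± 0.10, edgeR adjusted p = 0.173). Tap2 had 66.6, 85.0 and 115 CPM in MSI tumours and 64.3, 72.5 and 95.9 CPM in CIN tumours (0.20 ± 0.12, edgeR adjusted p = 0.339). Tap1, its partner, had 199, 293 and 446 CPM in MSI tumours and 219, 283 and 349 CPM in CIN tumours (0.09 ± 0.14, edgeR adjusted p = 0.693). The ranges of all 3 genes overlapped, and the highest value of each was in MSI tumour CIN free DNA 1.

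Of the immunoproteasome subunits, Psmb10 had 104, 145 and 173 CPM in MSI tumours and 83.0, 93.3 and 126 CPM in CIN tumours. Of the 8 MSI libraries, 6 lay above all CIN libraries and the other two within the CIN range. The mean was 143 ± 23.3 CPM in MSI tumours and 98.7 ± 16.8 CPM in CIN tumours (SD, n = 8 each), a 1.44-fold difference (log2 fold change 0.53 ± 0.12, edgeR adjusted p = 0.0265), and it was higher in all 4 matched pairs of groups. Psmb9 had 64.3, 97.8 and 137 CPM in MSI tumours and 63.3, 79.2 and 92.8 CPM in CIN tumours, with 5 MSI libraries above all CIN libraries (0.29 ± 0.12, edgeR adjusted p = 0.184). Psmb8 had 89.5, 121 and 169.9 CPM in MSI tumours and 86.7, 116 and 138 CPM in CIN tumours (0.11 ± 0.12, edgeR adjusted p = 0.597).

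The Psmb10 call was lost under several settings. A block for the replicate number within tumour type was coded so that its tumour difference is that of the replicate 1 libraries. Psmb10 averaged 142 and 109 CPM in replicate 1 libraries of MSI and CIN tumours, and 144 and 88.8 CPM in replicate 2 libraries. With that block its log2 fold change was 0.39 (edgeR adjusted p = 0.167). It was 0.41 without the 5 muscle-rich libraries (additive model, edgeR adjusted p = 0.305) and 0.51 without the 4 MSI tumour replicate 2 libraries (a setting added after the data were seen, adjusted p = 0.0351). In that last setting Psmb9 (0.44, edgeR adjusted p = 0.0188) and Tapbp (0.37, adjusted p = 0.0405) were also called. Leaving out 1 library kept the direction in every case and ended the call in 7 of 16, without MSI tumour MSI free DNA 2 (edgeR adjusted p = 0.0682), MSI tumour MSI micronuclei 1 (0.0712), CIN tumour MSI free DNA 2 (0.0514), CIN tumour CIN free DNA 2 (0.0836), CIN tumour MSI micronuclei 1 (0.0754) and 2 (0.0591) or CIN tumour CIN micronuclei 2 (0.0703).

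**Figure D2:**
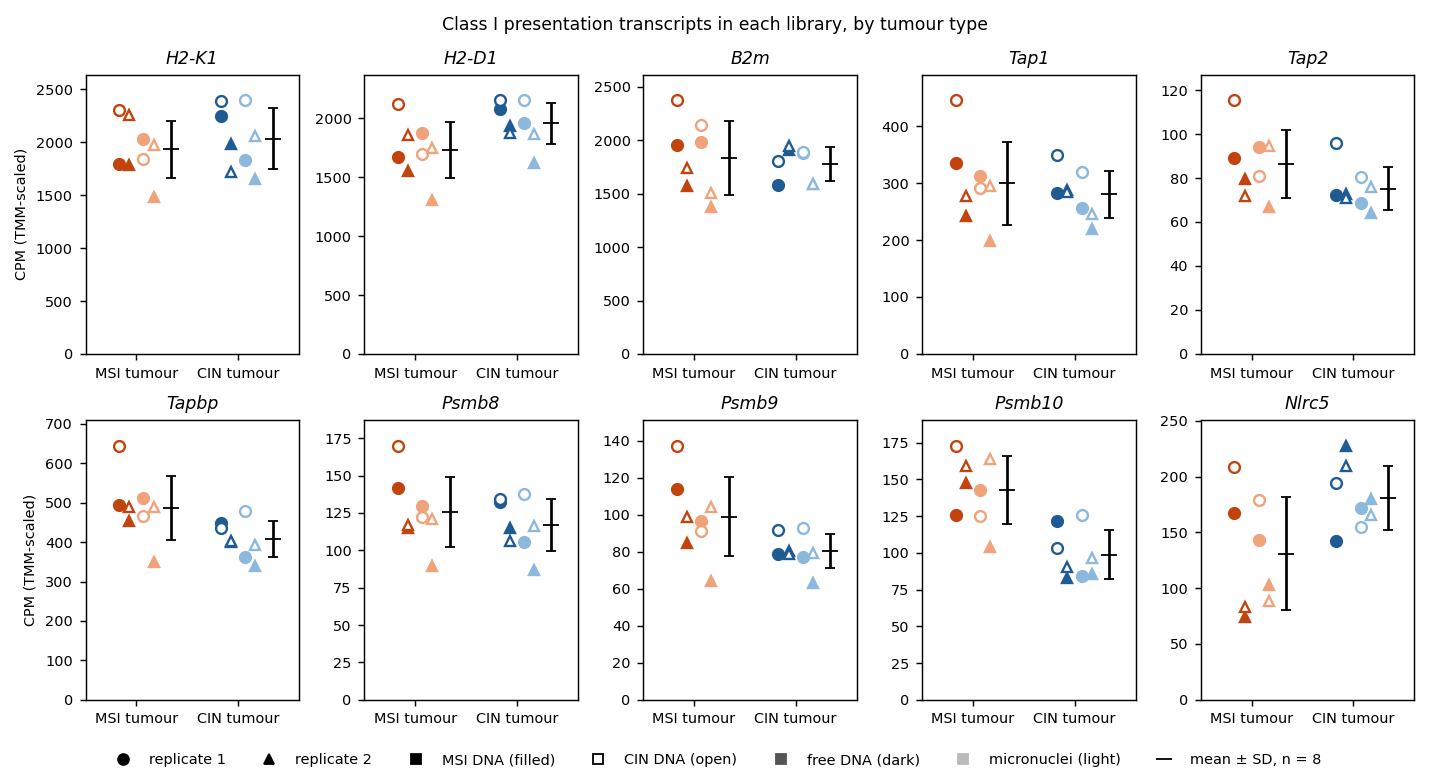
CPM (TMM-scaled, linear axis from 0) of each of the 10 genes in each library, MSI tumours left and CIN tumours right in every panel, with circles for replicate 1, triangles for replicate 2, filled marks for MSI DNA, open marks for CIN DNA, dark for free DNA and light for micronuclei, and black bars for the mean ± SD (n = 8). Psmb10 averaged 143 CPM in MSI tumours and 98.7 CPM in CIN tumours, and in the Nlrc5 panel the 4 MSI tumour triangles (74.4 to 103 CPM) lie below every other library.

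The transactivator gene Nlrc5 split by replicate number within MSI tumours. It had 74.4, 123 and 209 CPM in MSI tumours and 143, 176 and 228 CPM in CIN tumours, with a mean of 131 ± 50.6 CPM in MSI and 181 ± 28.5 CPM in CIN tumours (SD, n = 8 each, log2 fold change -0.46 ± 0.24, edgeR adjusted p = 0.291). The 4 MSI tumour replicate 2 libraries had 74.4 to 103 CPM and lay below all CIN libraries, and the 4 replicate 1 libraries had 143 to 209 CPM, within the CIN range. In CIN tumours Nlrc5 had 143 to 195 CPM in replicate 1 and 166 to 228 CPM in replicate 2 libraries. Without the 4 MSI tumour replicate 2 libraries the log2 fold change was -0.06 (edgeR adjusted p = 0.793). B2m split the same way in MSI tumours, with 1957 to 2376 CPM in replicate 1 and 1378 to 1744 CPM in replicate 2 libraries. Psmb8 did so narrowly, with 122 to 169.9 CPM in replicate 1 and 89.5 to 121 CPM in replicate 2. The ranges of the other members overlapped, among them Psmb10 (125 to 173 CPM in replicate 1 and 104 to 164 CPM in replicate 2). The replicate 2 libraries of MSI tumours were those with the most colon epithelium and smooth muscle transcripts, and the part of tissue content in the split was not tested.

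The second comparison set DNA of MSI cells against DNA of CIN cells, as given to the dendritic cells. Every member had a value slightly below 0, none of which passed the test, and the groups overlapped. The log2 fold change was positive for 0 of 10 members, with a median of -0.18, beside 39.7% positive and a median of -0.03 for all genes tested. No member was called and 0% of all genes were (edgeR, 0 of 18777, 209 or 1.11% at an unadjusted p under 0.05, and 0 by DESeq2 with 249 unadjusted), and no member had an unadjusted p under 0.05.

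H2-K1 had 1481, 1816 and 2246 CPM with MSI DNA and 1722, 2159 and 2400 CPM with CIN DNA, and 2 libraries with MSI DNA lay below all those with CIN DNA (log2 fold change -0.20 ± 0.10, edgeR adjusted p = 1). H2-D1 had 1310, 1769 and 2075 CPM with MSI DNA and 1698, 1874 and 2155 CPM with CIN DNA (-0.15 ± 0.09). Psmb9 had 63.3, 79.7 and 114 CPM with MSI DNA and 78.7, 92.4 and 137 CPM with CIN DNA (-0.23 ± 0.12). The groups overlapped for each member, with libraries of both kinds in the middle of the range. Tap1 (-0.23 ± 0.14), Psmb10 (-0.21 ± 0.12), Tap2 (-0.18 ± 0.12), Tapbp (-0.17 ± 0.10), Psmb8 (-0.17 ± 0.12) and B2m (-0.11 ± 0.12) had the same sign, and Nlrc5 the smallest value (-0.10 ± 0.24), each with edgeR adjusted p = 1.

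Within MSI tumours the source differences ran from -0.26 (Psmb9) to -0.14 (Tap2) and within CIN tumours from -0.22 (Tap2) to 0.003 (Nlrc5), with 0% of genes called in either (edgeR, with 0.804% and 1.68% at an unadjusted p under 0.05). All 10 members stayed negative without the 5 muscle-rich libraries and without the 4 MSI tumour replicate 2 libraries. Nlrc5 turned positive without MSI tumour MSI free DNA 2 (0.04), MSI tumour CIN free DNA 1 (0.11) or MSI tumour CIN micronuclei 1 (0.05). T cell markers (20 genes, none at 0 in any library) had values of the same sign as the class I genes, with 0 called. So did those of some other lists, with 0 positive of 10 B and plasma cell, 11 NK cell, 20 colon epithelium, 12 smooth muscle and 7 leukocyte markers. Further lists were mixed, with 4 of 7 neutrophil, 6 of 12 endothelial, 4 of 14 macrophage and 4 of 11 skeletal muscle markers positive. For dendritic cells 1 of 9 and for fibroblasts 1 of 10 markers were positive. The T cell score was 2.26 ± 0.40 with MSI DNA and 2.64 ± 0.34 with CIN DNA (SD, n = 8 each), and 0 of 20 had a positive value. The part of these cell types in the class I values was not tested.

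The third comparison set free DNA against micronuclei. Every member had a value slightly above 0, again with none past the test and with overlapping groups. The log2 fold change was positive for 10 of 10 members with a median of 0.12, beside 50.4% and a median of 8e-04 for all genes, and the call rate was 0% for all genes and 0 for the members (edgeR, 148 genes or 0.788% at an unadjusted p under 0.05, and 0 by DESeq2 with 198 unadjusted).

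Tap1 had the largest difference, with 242, 285 and 446 CPM with free DNA and 199, 274 and 319 CPM with micronuclei, 3 libraries with free DNA lying above all with micronuclei (log2 fold change 0.22 ± 0.14, edgeR adjusted p = 1). Psmb8 had 106, 125 and 169.9 CPM with free DNA and 86.7, 119 and 138 CPM with micronuclei (0.19 ± 0.12). Psmb9 had 78.7, 88.5 and 137 CPM with free DNA and 63.3, 85.4 and 104 CPM with micronuclei (0.19 ± 0.12). For all 3 genes the groups overlapped and most libraries lay in the shared range. The others were Tapbp (0.15 ± 0.10), Nlrc5 (0.13 ± 0.24), H2-K1 (0.11 ± 0.10), Psmb10 (0.11 ± 0.12), H2-D1 (0.10 ± 0.09), Tap2 (0.10 ± 0.12) and B2m (0.09 ± 0.12), each with edgeR adjusted p = 1. The group mean was above that of micronuclei in all 4 matched pairs of groups for H2-D1, B2m, Tap1 and Tap2 and in 3 of 4 for the rest.

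Within MSI tumours the form differences ran from 0.05 (Nlrc5) to 0.29 (Psmb9) and within CIN tumours from 0.04 (Psmb10) to 0.21 (Tap1), with 0% of genes called in either (edgeR, with 0.671% and 0.815% at an unadjusted p under 0.05). Without MSI tumour CIN free DNA 1 the values of Nlrc5 (-0.07) and Tap2 (-0.0004) turned negative, and Nlrc5 did so without MSI tumour MSI free DNA 1 (-0.05). The T cell markers had a mean log2 CPM of 2.53 ± 0.38 with free DNA and 2.37 ± 0.45 with micronuclei, and 19 of 20 had a positive value. So did 10 of 10 B and plasma cell, 7 of 7 leukocyte and 17 of 20 colon epithelium markers. Mixed lists were NK cells (7 of 11), macrophages (9 of 14), dendritic cells (6 of 9), neutrophils (4 of 7) and fibroblasts (4 of 10). Few or none were positive for endothelium (0 of 12), smooth muscle (2 of 12) and skeletal muscle (2 of 11). The part of these cell types in the class I values was not tested. The tumour by source, tumour by form and source by form interactions, halved to the scale of a mean difference, lay between -0.10 and 0.11 for every member, with 0% of genes called (edgeR, with 1.52%, 0.847% and 1.89% at an unadjusted p under 0.05). A difference in source or form effect between tumour types was therefore not detected for any member.

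**Figure D3:**
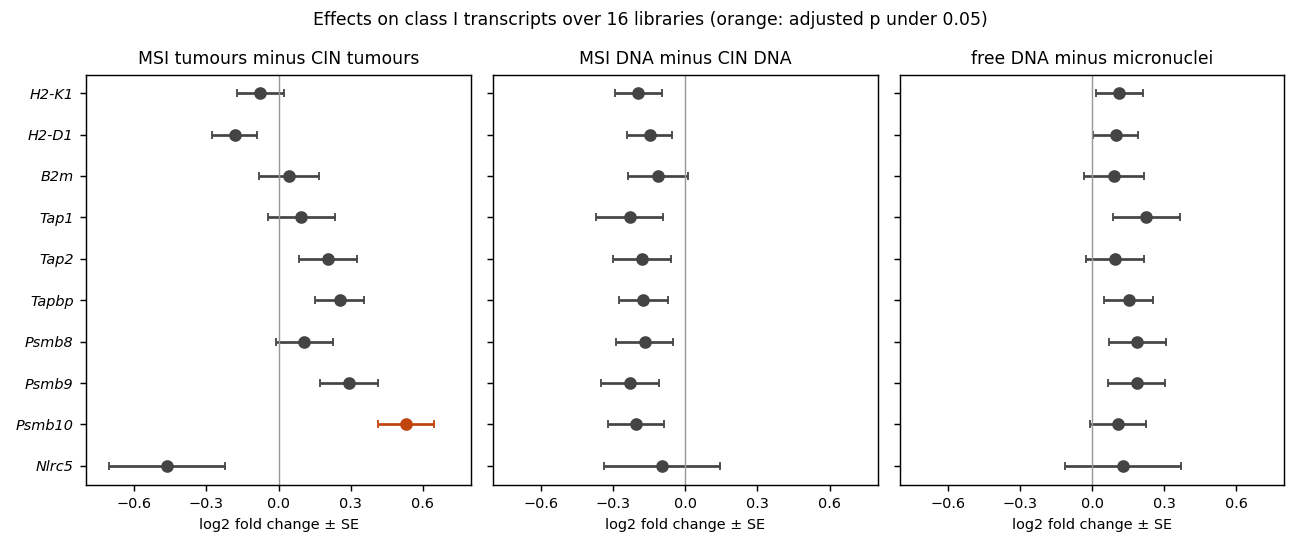
Log2 fold change ± SE (edgeR, 16 libraries) of each of the 10 genes for MSI minus CIN tumours (left), MSI minus CIN DNA (middle) and free DNA minus micronuclei (right), with a grey line at 0 and orange for an adjusted p under 0.05. Psmb10 in the tumour panel (0.53) is the one orange point, and all points of the middle panel lie left of 0 and all of the right panel right of 0.

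Ratios between subunits do not depend on how a library is scaled, and 6 ratios of FPKM were compared in the 3 effects, 18 tests in all, by a two-sided exact permutation test of log2 ratios within matched groups (1296 arrangements, smallest possible p = 0.00154). None passed 0.05 after adjustment. The ratio of the immunoproteasome subunit Psmb10 to Psmb7, the subunit it replaces, was 4.64 ± 0.75 in MSI tumours and 3.62 ± 0.80 in CIN tumours (mean ± SD of 8 libraries, exact permutation p = 0.0231, adjusted 0.167). Psmb8 to Psmb5 went the other way, at 0.52 ± 0.06 in MSI tumours and 0.61 ± 0.10 in CIN tumours (exact permutation p = 0.0386, adjusted 0.167). Psmb9 to Psmb6 was 0.52 ± 0.11 in MSI tumours and 0.45 ± 0.05 in CIN tumours (exact permutation p = 0.102, adjusted 0.262). The log2 differences of these 3 ratios lay on both sides of 0, and none passed the adjusted test.

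Psmb9 and Tap1 are transcribed away from each other from 1 shared promoter region. Their ratio was 0.50 ± 0.03 in MSI tumours and 0.43 ± 0.03 in CIN tumours (mean ± SD of 8 libraries, exact permutation p = 0.00463, adjusted 0.0833). In MSI tumours the ratio ran from 0.46 to 0.53 and in CIN tumours from 0.39 to 0.49, and 4 of the 8 MSI libraries lay below the highest CIN library. H2-K1 to H2-D1 was 1.11 ± 0.05 in MSI tumours and 1.03 ± 0.08 in CIN tumours (exact permutation p = 0.0278, adjusted 0.167). Tap1 to Tap2 was 2.59 ± 0.21 with free DNA and 2.36 ± 0.22 with micronuclei (exact permutation p = 0.0463, adjusted 0.167). Without MSI tumour CIN micronuclei 1 the tumour differences of Psmb9 to Tap1 and of Psmb10 to Psmb7 passed (exact permutation, adjusted p = 0.0417 each). Overlapping or near-identical exons enter the Psmb9 to Tap1 and H2-K1 to H2-D1 ratios.

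**Figure D4:**
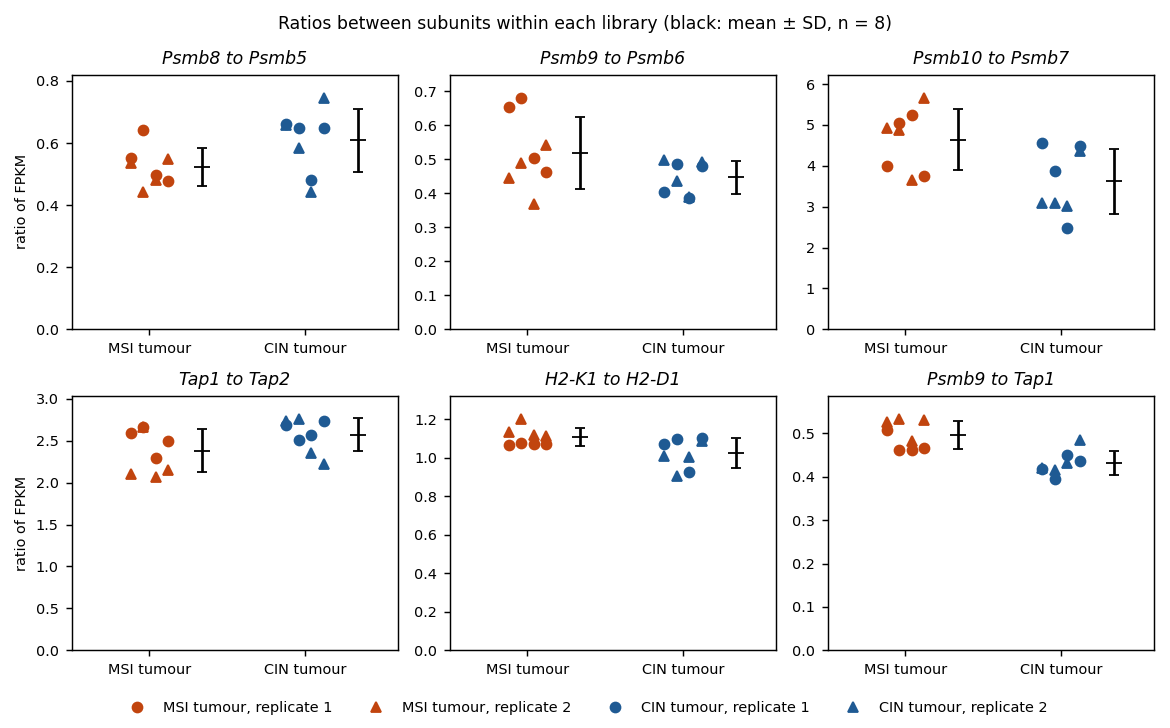
Ratios of FPKM between pairs of subunits in each library (linear axes from 0), MSI tumours left in orange and CIN tumours right in blue, circles for replicate 1 and triangles for replicate 2, black bars for the mean ± SD (n = 8). Psmb9 to Tap1 lies between 0.46 and 0.53 in MSI tumours and between 0.39 and 0.49 in CIN tumours, and the other panels overlap more.

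The rest of the class I pathway was read from a list of 42 further genes, 41 of them tested. In the tumour comparison 3 were higher and 2 lower by edgeR, against 2.32% and 3.48% of all genes, 27 of 41 had a positive log2 fold change and the median was 0.09. Pdia3, the oxidoreductase of the peptide-loading complex, had 719 ± 46.2 CPM in MSI tumours and 571 ± 31.5 CPM in CIN tumours (log2 fold change 0.33, edgeR adjusted p = 0.0199). Tapbpl, a tapasin-related editor of bound peptides, had 59.4 ± 9.88 CPM in MSI tumours and 43.3 ± 2.83 CPM in CIN tumours (0.45, edgeR adjusted p = 0.0333). Uggt1, which checks glycoprotein folding, was lower (-0.60, edgeR adjusted p = 0.0238). Of the NF-Y subunits that bind CCAAT boxes, Nfya fell (-0.51, edgeR adjusted p = 0.0233) and Nfyc rose (0.29, edgeR adjusted p = 0.0236). Values of these genes without the muscle-rich libraries are not given here.

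Other named genes of the list did not pass. They were the chaperones Calr (-0.15) and Canx (-0.28), the peptide trimming enzyme gene Erap1 (0.09), and Psme1 (0.34, edgeR adjusted p = 0.0673) and Psme2 (0.36), which encode the proteasome activator induced by interferon gamma. The replaced subunits Psmb5 (0.31), Psmb6 (0.08) and Psmb7 (0.15), and Rfx5 (0.09), Rfxap (-0.12) and Rfxank (0.38), subunits of the factor that binds class I and class II promoters, were not called either. Nor were the non-classical or less well known heavy chains H2-Q4 (0.09), H2-Q6 (0.27), H2-Q7 (0.20), H2-T22 (-0.12), H2-T23 (0.56, edgeR adjusted p = 0.188) and H2-M3 (-0.07), whose reads can be shared among them. The 14 genes of the constitutive proteasome core all had a positive log2 fold change with a median of 0.20, and Psma1 was called (0.27, edgeR adjusted p = 0.0415). Of 19 upstream regulators 12 were positive and 0 called, by edgeR (6 at an unadjusted p under 0.05). Ifng, the inducer, had 3.41 ± 1.33 CPM in MSI tumours and 2.58 ± 0.88 CPM in CIN tumours (0.32, edgeR adjusted p = 0.481). The transcription factor gene Irf1 had a log2 fold change of 0.15 (edgeR adjusted p = 0.399).

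For DNA source, 10 of the 41 further pathway genes and 3 of the 19 regulators had a positive log2 fold change, with medians of -0.06 and -0.13, and for DNA form 33 and 17 had a positive one, with medians of 0.06 and 0.04. None was called by edgeR in either comparison. At an unadjusted p under 0.05 there were 5 genes for source and 2 for form. Irf1 had a log2 fold change of -0.28 for source and 0.14 for form.

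Across the 16 libraries most pairs of members without Nlrc5 were positively correlated, and pairs with Nlrc5 mostly less so. The split was not clean. Psmb10 was weakly related to H2-D1 (r = 0.046) and B2m (0.155), and Nlrc5 more closely to B2m (0.62) and H2-D1 (0.486). Over the 36 pairs without Nlrc5 the median Pearson correlation of log2 CPM was 0.65 (0.05 to 0.94), and over the 9 pairs with Nlrc5 it was 0.13 (-0.55 to 0.62). These pairs share libraries and scaling and are given as a description. The highest pair was Tapbp with Psmb9 (0.94). Of the other genes tested, those most like the mean standardised level of the members were Ube2l6 (Pearson r = 0.95 over 16 libraries), Apol9a (0.93), Igtp (0.92), Irgm1 (0.91), Apol9b, Serpina3g, Ifi47 and Ifitm3 (0.90 each), Irf1 (0.89) and Cxcl10 (0.88).

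Relations of each member with Nlrc5, with the T cell markers and with the colon epithelium markers were tested over the 16 libraries, 29 in all, by permutation (100000 resamples, two-sided, adjusted over the 29). Nlrc5 and B2m had r = 0.62 (permutation p = 0.0109, adjusted 0.0454) and rho = 0.61 (adjusted 0.055), with r = 0.85 within MSI tumours, 0.56 within CIN tumours and 0.68 without the 2 libraries farthest in Nlrc5. Nlrc5 and Psmb10 had r = -0.55 (permutation p = 0.0282, adjusted 0.0908), with -0.08 within MSI and -0.70 within CIN tumours. Nlrc5 and the colon epithelium score had r = -0.64 (permutation p = 0.0074, adjusted 0.0429) and rho = -0.84 (p = 8e-05, adjusted 0.00232). That relation was -0.91 within MSI tumours, where it follows the split between replicate numbers, -0.23 within CIN tumours, and -0.89 without the 2 libraries farthest in score. B2m and the colon score had r = -0.64 (permutation, adjusted p = 0.0429), with -0.83 within MSI and -0.52 within CIN tumours.

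The T cell score was related to Psmb9 (r = 0.69, rho = 0.75), Psmb8 (r = 0.68, rho = 0.75), Tapbp (r = 0.64, rho = 0.60) and Tap2 (r = 0.62, rho = 0.70), with permutation adjusted p of 0.0429 for the first 3 r values and 0.0454 for Tap2. For these 4 genes r was 0.25 to 0.59 within MSI and 0.70 to 0.86 within CIN tumours, and 0.51 to 0.59 without the 2 libraries farthest in score. H2-D1 (r = 0.16), B2m (0.25) and Nlrc5 (-0.18) had the weakest relations with it (permutation, adjusted p = 0.802, 0.631 and 0.782). All 7 relations past 0.05 missed it when libraries were scaled with DESeq2 size factors, the lowest adjusted p being 0.0519. They also missed it in an exact sign-flip test with the group means removed. There r was larger in size for Nlrc5 with B2m (0.84) and for the colon score with B2m (-0.84) and Nlrc5 (-0.72), and smaller for the T cell score with the 4 genes (0.20 to 0.46). Leaving out 1 library gave 5 to 8 relations past 0.05 without MSI tumour CIN free DNA 2, MSI tumour MSI micronuclei 1, CIN tumour CIN free DNA 1 or CIN tumour CIN micronuclei 2. It gave 4 without MSI tumour CIN free DNA 1, 3 without CIN tumour MSI micronuclei 1, 2 without MSI tumour CIN micronuclei 1 and 0 without each of the other 9.

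**Figure D5:**
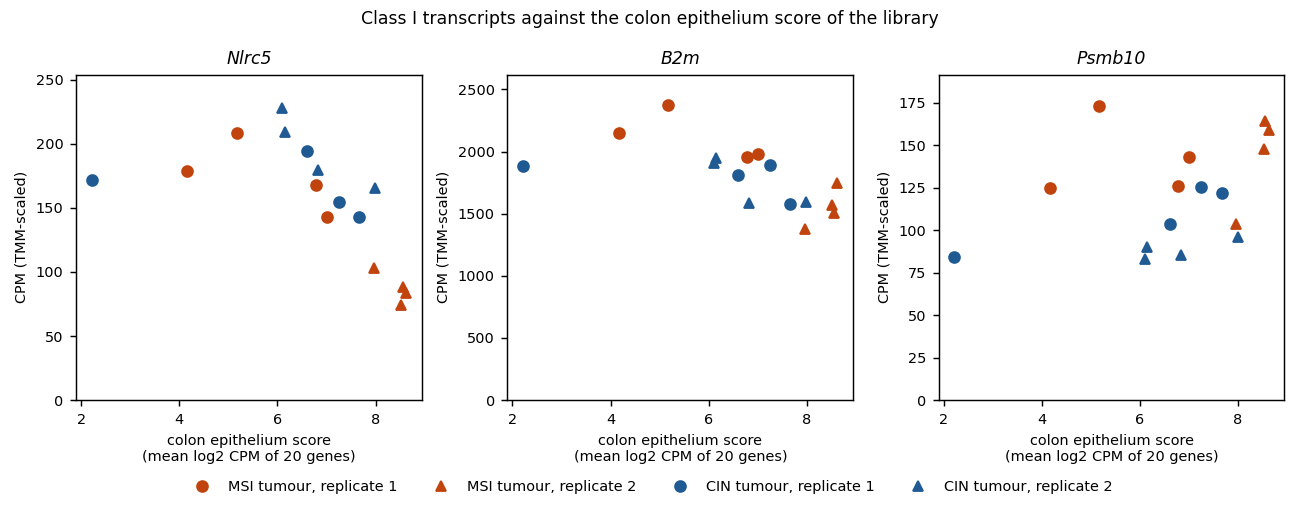
CPM (TMM-scaled, linear axis from 0) of Nlrc5, B2m and Psmb10 against the colon epithelium score (mean log2 CPM of 20 genes) in 16 libraries, MSI tumours in orange and CIN tumours in blue, circles for replicate 1 and triangles for replicate 2. The 4 MSI tumour replicate 2 libraries have scores of 7.96 to 8.62 and the lowest Nlrc5 values (74.4 to 103 CPM), while their Psmb10 values (104 to 164 CPM) lie within the range of the MSI tumour replicate 1 libraries or below it.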

How the data were processed

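Poly-A RNA-seq libraries were analysed from the deposited table of raw counts per gene. Reads were trimmed with fastp, aligned with HISAT2 2.0.5 and counted with featureCounts 1.5.0-p3, per the submitters' processing notes, which name GRCm39, although the table's coordinates are those of GRCm38. A second deposited table holds the authors' FPKM, which equal counts over gene length and 1 total per library (relative tolerance 1e-06), and they served for levels and ratios. Each table has 4 further columns of values that match no sample and were not used. CPM were scaled by TMM. The tests used edgeR 4.0.16 (quasi-likelihood, robust, 1 mean per group, filterByExpr), adjusted by Benjamini-Hochberg over all genes, and were tested on simulated counts. Alternatives were DESeq2 1.42.0, other models and left-out libraries. All 10 members are named, with pathway genes past 0.05 or named in the rule, and the 10 most similar genes. Members and lists were chosen with earlier results of these data known. One regulator covered by the naming rule is not reported here.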

Additional observations from a re-analysis of the deposited data

Results flagged for a closer look

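In 60 groups of 8 libraries, of which chance would mark about 1 in 20, the library MSI tumour CIN free DNA 1 lay far above the others in 3. Tapbp reached 644.5 CPM in it, against 488 CPM in the next library among those with CIN DNA and 494 CPM among those with free DNA. Psmb9 reached 137 CPM, against 104 CPM in the next library with CIN DNA.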

How the results depend on the processing

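For the tumour comparison, genes called moved from 1089 to 1778 with a replicate block, 1693 with colon epithelium and smooth muscle scores as covariates, 1950 with an additive model, 132 with the additive model without the 5 muscle-rich libraries, 1791 with the additive model without the 4 MSI tumour replicate 2 libraries (chosen after seeing the data) and 2295 with DESeq2. Members called moved from 1 to 0 with a replicate block within tumour type (Psmb10 0.39, edgeR adjusted p = 0.167), 0 with the additive model without the 5 muscle-rich libraries and 3 with it without the 4, against 1 with it on all libraries. The replicate block within tumour type was coded so that its tumour difference is that of the replicate 1 libraries, not a mean over both replicate numbers. DESeq2 called 2 genes for tumour by DNA source, 1 for source by form and 1 for source within CIN tumours. No label says what a replicate number marks. Deviations of same-numbered libraries correlated at 0.40 to 0.80 in MSI tumours, -0.33 to 0.38 in CIN tumours and -0.54 to 0.65 across tumour types. The numbers were therefore not taken to pair the libraries over the whole series. Within MSI tumours these deviations were shared, and the main model leaves them in the spread between libraries. With the replicate block within tumour type 0 genes were called for source and 0 for form (edgeR). For tumour type, the value of Psmb8 changed sign without the 5 libraries (-0.029). Nlrc5 had 0.0735 with the replicate block within tumour type, which is its replicate 1 difference. Its mean was 175 CPM in MSI and 166 CPM in CIN tumours in replicate 1, and 87.4 and 196 CPM in replicate 2 libraries. Relations past 0.05 numbered 0 with DESeq2 size factors and with group means removed, where r was 0.84 for Nlrc5 with B2m and -0.84 and -0.72 for the colon score with B2m and Nlrc5. With group means removed the sign-flip test was too coarse for a few relations to pass after adjustment, so its count of 0 decides little. With size factors r turned to -0.0222 for Nlrc5 with Tap2, -0.0824 for Nlrc5 with Psmb9, and 0.109, 0.0575 and 0.0655 for the colon score with Tap2, Psmb8 and Psmb9. With group means removed it turned to -0.0248 for Nlrc5 with H2-K1, 0.41 for Nlrc5 with Tapbp, 0.25 for the T cell score with Nlrc5, and -0.0868 and -0.36 for the colon score with H2-K1 and Tapbp. Leaving out each library gave 460 to 1951 genes called for tumour type, under 1089 by over 1.5 times without CIN tumour CIN free DNA 2 (460.0), CIN tumour MSI micronuclei 1 (528), CIN tumour CIN micronuclei 1 (545) and 2 (633), MSI tumour MSI free DNA 2 (561), MSI tumour MSI micronuclei 1 (552) and 2 (564) or CIN tumour MSI free DNA 2 (706), and above it without MSI tumour CIN micronuclei 1 (1951). It gave 0 to 1 members, 0 to 2 ratios and 0 to 8 relations. Log2 fold changes ranged over -0.029 to 0.11 (B2m) and -0.002 to 0.19 (Tap1) for tumour type, -0.27 to 0.11 (Nlrc5) for source, and -0.0004 to 0.16 (Tap2) and -0.0727 to 0.28 (Nlrc5) for form. Log2 ratio differences ranged over -0.0251 to 0.0438 (H2-K1 to H2-D1, form), -0.0191 to 0.13 (Psmb10 to Psmb7, form) and -0.0319 to 0.0207 (Psmb9 to Tap1, source). Correlations of Nlrc5 ranged over -0.0268 to 0.28 with H2-K1, -0.18 to 0.12 with Psmb9 and -0.0806 to 0.24 with Tap2, and those of the colon score over -0.0128 to 0.22 with H2-K1, -0.29 to 0.0877 with Psmb8, -0.23 to 0.14 with Psmb9, -0.28 to 0.17 with Tap2 and -0.21 to 0.30 with Tapbp. The cause of these changes was not tested. With 2 libraries a group, differences within the spread were not detectable.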
